A study of Mus musculus with 2 samples.

Results

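The 39 genes described here encode the proteins of the lens capsule and of other basement membranes, together with the enzymes and chaperones that build them. They were chosen by name from the 32285 genes in each count table and comprised 11 collagen genes, 10 laminin genes, 6 genes of linking and associated glycoproteins, and 12 genes of collagen folding, modification, and cross-linking. Their transcripts were counted by single-cell RNA sequencing (scRNA-seq) of the lens epithelium of C57BL/6N mouse pups, all wild-type, in 2 pools taken at postnatal day 2 (P2). Each pool combined the lenses of 4 to 8 pups, so pups could not be told apart within a pool, and neither pool carried an altered allele or a treatment. Lenses were freed of ciliary body and of the surrounding vessels with forceps and trypsin, the capsule was peeled off with its epithelium, and the cells were released with collagenase, dispase, and trypsin. The cells compared below are mural cells, endothelial cells, and lens cells of the same 2 pools and, within the lens cells, 4 groups sorted on markers of differentiation and division.

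The lens capsule is a thick basement membrane that lens cells secrete on their basal side and that encloses the lens throughout life. Basement membranes hold a network of collagen IV, whose alpha chains join as trimers in fixed combinations, and a network of laminins, each a trimer of an alpha, a beta, and a gamma chain, with nidogens and heparan sulfate proteoglycans binding the networks. Around birth the capsule is also covered by a transient net of capillaries, whose endothelial and mural cells lay down basement membranes of their own.

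The 6 collagen IV genes lie as head-to-head pairs, Col4a1 with Col4a2, Col4a3 with Col4a4, and Col4a5 with Col4a6. Sequence between paired starts is shown because the last 2 pairs were highest in lens cells in the comparisons that follow, and because the pair on chromosome X stood apart within the lens. In the GENCODE vM21 annotation of GRCm38 (mm10), the longest extents of Col4a1 and Col4a2 on chromosome 8 overlapped by 22 bases, those of Col4a3 and Col4a4 on chromosome 1 were 71 bases apart, and those of Col4a6 and Col4a5 on chromosome X were 1308 bases apart. RefSeq promoters of GRCm38.p6, matched by symbol for 27 of the 39 genes, gave the stretches below, all upstream of annotated transcripts and read on the strand of the named gene. For Col4a4 the stretch is the whole interval to Col4a3 (chr1:82586850-82586920, minus strand), for Col4a6 the 250 bases before its start (chrX:141474077-141474326, minus strand), and for Col4a5 the 216 bases before its longest extent (chrX:141475169-141475384, plus strand). Capitals mark a GC box (GGGCGG, here on the other strand) or a CCAAT box.
Col4a4: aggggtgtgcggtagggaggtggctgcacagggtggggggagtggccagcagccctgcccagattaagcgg
Col4a6: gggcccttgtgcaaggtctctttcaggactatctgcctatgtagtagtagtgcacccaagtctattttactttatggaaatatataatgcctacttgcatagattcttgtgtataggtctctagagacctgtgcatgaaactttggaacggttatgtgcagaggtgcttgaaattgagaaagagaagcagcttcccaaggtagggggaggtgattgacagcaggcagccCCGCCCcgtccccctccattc
Col4a5: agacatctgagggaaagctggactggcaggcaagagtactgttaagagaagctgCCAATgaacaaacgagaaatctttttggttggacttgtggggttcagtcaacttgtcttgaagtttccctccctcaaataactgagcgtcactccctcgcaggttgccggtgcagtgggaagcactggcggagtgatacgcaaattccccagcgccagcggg
All stretches were searched on both strands for the GC box, the CCAAT box, and the TATA box (as TATAAA), and no match overlapped another. The Col4a4 stretch held none of them, the Col4a6 stretch held 1 GC box, and the Col4a5 stretch held 1 CCAAT box. Of 32851 promoter windows read over the same positions as for Col4a6, 32.7% held a GC box, and of those read over the same positions as for Col4a5, 30.5% held a CCAAT box. Over the Col4a4 positions the shares were 20.7% for a GC box, 13.3% for a CCAAT box, and 4.41% for a TATA box.

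The pools held 12314 and 9425 barcodes (replicates 1 and 2) with medians of 6307 and 8050 unique molecular identifiers (UMIs) per barcode, and they had 27 barcodes in common. After limits on UMIs, genes, mitochondrial share, and doublet score, 10658 and 7836 cells remained, and these were sorted on marker transcripts that include none of the 39 genes. Replicates 1 and 2 gave 163 and 213 mural cells (Rgs5, Pdgfrb, Notch3, and other pericyte markers), 316 and 214 endothelial cells (Cldn5, Pecam1, Cdh5, and others), 10011 and 7323 lens cells (Cryaa and Cryab at 2% or more of the UMIs), and 23 and 25 macrophages. Median UMIs per cell were 3314 and 3455 in mural cells, 3122 and 3196 in endothelial cells, and 6269 and 8136 in lens cells. Levels are given as CPM, counts per 1000000 UMIs summed over all cells of one kind in a pool and scaled by factors from the trimmed mean of M values (TMM). Libraries prepared from the 3′ end give about 1 tag per transcript, so levels were not divided by gene length. Both pools came from the same strain and age. Differences between pools were fitted apart, so p-values rest on how far the differences between cell groups varied between these 2 pools. The spread of each gene was estimated with help from all genes and all groups of a fit, macrophages included among cell types.

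Most markers left out of the sorting were highest in the cells they name. The lens markers Pax6, Foxe3, and Cdh1 summed to 17.7 and 16.4 CPM in mural cells and 12.2 and 12.4 CPM in endothelial cells, against 490.3 and 472 CPM in lens cells. The endothelial markers Ctla2a, Tie1, and Flt1 summed to 216 and 208 CPM in mural cells, 2829 and 3320.1 CPM in endothelial cells, and 2.79 and 2.63 CPM in lens cells. The mural markers Mgp, Serpine2, and Acta2 summed to 8788 and 11363 CPM in mural cells and 21.8 and 20.7 CPM in endothelial cells, against 283 and 251 CPM in lens cells, of which Acta2 alone had 279 and 247 CPM. Apoe, a macrophage marker, had 174 and 341 CPM in mural cells, 16 and 28 CPM in endothelial cells, and 27.9 and 44.3 CPM in lens cells, and its part in the results was not tested. Of the fibroblast markers, Pdgfra had 0 and 1.37 CPM in mural cells against 110.1 and 119.6 CPM in lens cells. Dcn and Lum were at 0 in mural cells, whereas Col3a1 had 269 and 319.5 CPM and Col1a1 had 17.7 and 6.83 CPM there. Free RNA from lens cells can reach the droplets of other cells. Scaled to all UMIs, Pax6 and Foxe3 together were at 4.38% and 3.55% of their lens level in mural cells (8 and 8 UMIs) and at 3.12% and 3.19% in endothelial cells (15 and 9 UMIs), and a capsule gene at such a share of its lens level cannot be told apart from free lens RNA. With a limit of 1.5 times that share, this held for Col4a3, Col4a4, Col6a3, and Loxl1 in both vascular cell types. It also held for Col4a6, Lama2, and P4ha2 in endothelial cells and for Lama5 in mural cells.

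Capsule and basement membrane genes took a larger part of the RNA in vascular cells than in lens cells. The 39 genes held 1.59% and 1.65% of all UMIs in mural cells, 1.35% and 1.39% in endothelial cells, and 0.904% and 0.891% in lens cells. No test was run on these shares. Levels were compared with edgeR's quasi-likelihood test with the pool as a block, and p-values were adjusted by the Benjamini-Hochberg method over all 9810 genes tested. A gene is called changed at an adjusted p under 0.05. The filter on low counts kept 34 of the 39 genes, and it can keep a gene through 1 cell type alone, as it kept Col15a1 through endothelial cells. Genes low in lens cells, such as Lama4, Col18a1, Nid2, Lamb2, and Lamc3, passed it through vascular cells. Col4a3, Col4a4, Col4a6, Col6a3, P4ha2, and Loxl1, low in vascular cells, passed it through lens cells. Calls of such genes between vascular and lens cells add no support beyond the levels, and the counts below include them. Between mural and lens cells 18 of the 34 were higher (52.9%) and 11 lower (32.4%), beside 27.2% higher and 28.6% lower among all genes tested, or 55.7% in either direction. Between endothelial and lens cells 13 were higher (38.2%) and 17 lower (50%), beside 29.2% and 34.5% of all genes, or 63.7% in either direction. Between mural and endothelial cells 18 were higher (52.9%) and 7 lower (20.6%), beside 19.8% and 16.7% of all genes, or 36.5% in either direction. The shares called lower in mural cells, against lens and against endothelial cells, were near those of all genes. These shares of all genes also stand beside the counts by role given below. The direction of every call was the same in both pools.

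The scale of these comparisons depends on what the levels are set against. With total UMIs in place of TMM factors, the median log2 difference over all genes was 0.15 instead of −0.08 between mural and lens cells, 0.19 instead of −0.12 between endothelial and lens cells, and −0.09 instead of −0.02 between mural and endothelial cells. The genes called higher and lower were then 3239 and 2055 between mural and lens cells, instead of 2664 and 2801, and 3824 and 2339 between endothelial and lens cells, instead of 2868 and 3381.

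**Figure D1:**
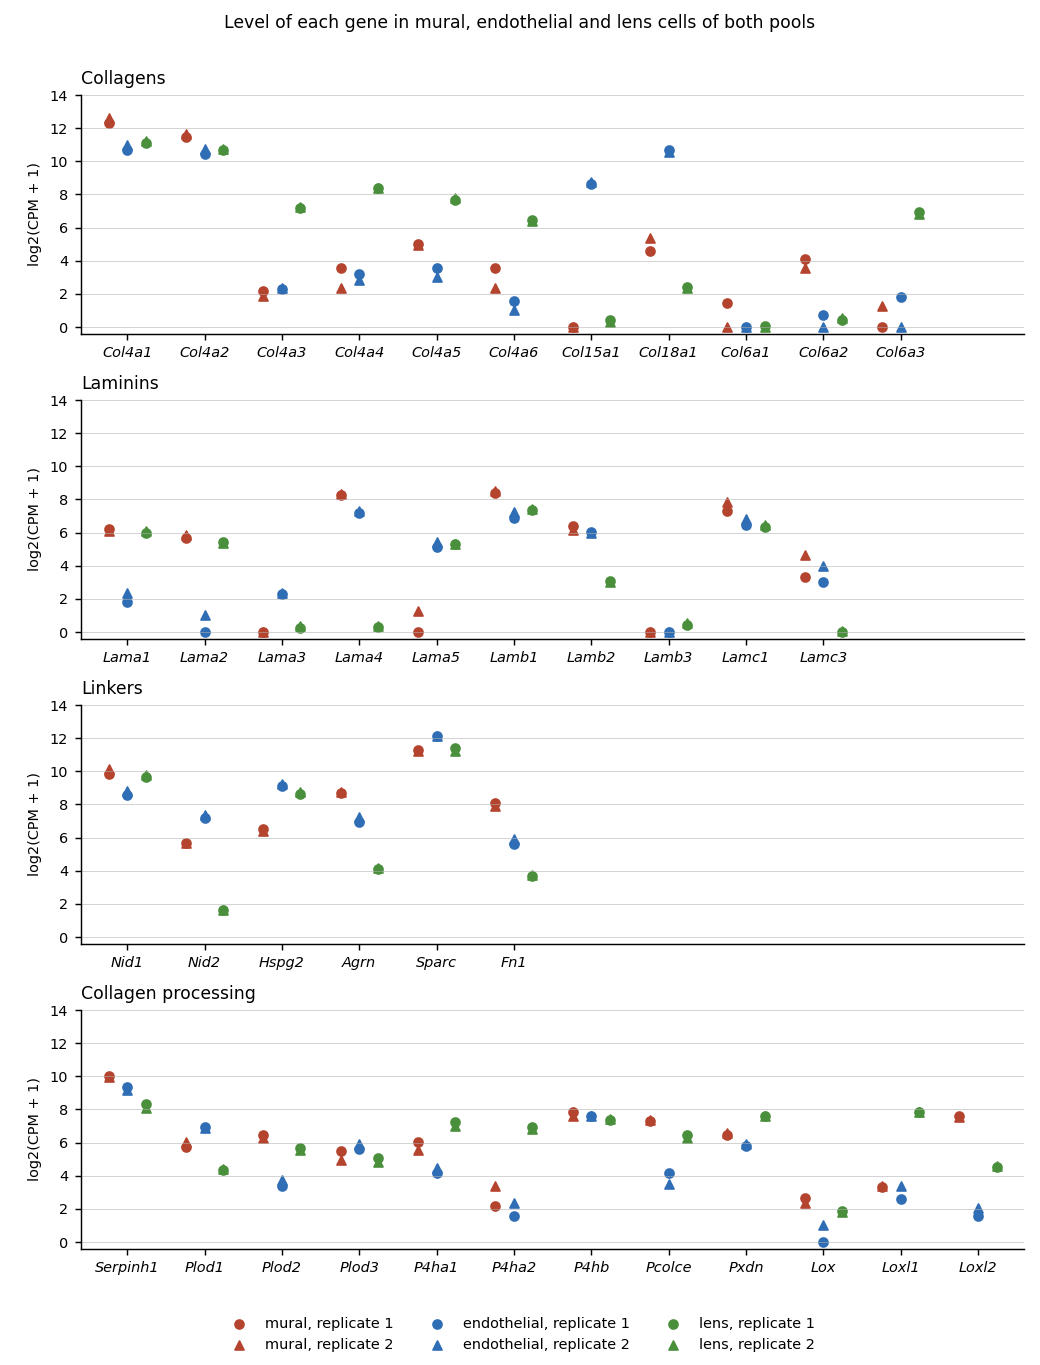
Level of each capsule and basement membrane gene in mural, endothelial, and lens cells, as log2(CPM + 1) with 1 point per pool, in 4 panels by role (collagens, laminins, linkers, collagen processing). Col4a3 to Col4a6 and Col6a3 lay highest in lens cells, Col15a1 and Col18a1 in endothelial cells, and Lama4 in both vascular cell types.

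Lens cells differed from vascular cells in which collagen IV chains they expressed. Col4a1 and Col4a2 encode the chains of the collagen IV trimer that is common to nearly all basement membranes. Col4a1 had 5162 and 6144 CPM in mural cells, 1676 and 2049 CPM in endothelial cells, and 2233 and 2369.8 CPM in lens cells. Col4a2 had 2819 and 3181 CPM in mural cells, 1403 and 1721 CPM in endothelial cells, and 1613 and 1707 CPM in lens cells. Both mural pools lay above all endothelial and lens pools for both genes. By edgeR's quasi-likelihood test, the log2 difference between mural and lens cells was 1.29 ± 0.082 (SE) for Col4a1 (adjusted p = 1.56e-34) and 0.85 ± 0.085 for Col4a2 (adjusted p = 3.29e-18). Between mural and endothelial cells it was 1.60 ± 0.085 for Col4a1 (edgeR, adjusted p = 3.69e-43) and 0.95 ± 0.087 for Col4a2 (adjusted p = 4.28e-20). Endothelial and lens cells were closer, with Col4a1 lower in endothelial cells by edgeR (−0.31 ± 0.082, adjusted p = 3.87e-04) but at an adjusted p of 0.97 with total UMIs and 0.0743 with DESeq2. Col4a2 did not pass the edgeR test between these cells (−0.095 ± 0.084, adjusted p = 0.33), and its difference turned to 0.21 with total UMIs.

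Col4a3, Col4a4, Col4a5, and Col4a6 encode the chains of more restricted collagen IV trimers, found for example in the glomerulus of the kidney, and mutations in human COL4A3, COL4A4, or COL4A5 cause Alport syndrome, in which the lens capsule can be thin. Col4a3 had 3.54 and 2.73 CPM in mural cells and 3.84 and 4.14 CPM in endothelial cells, against 142 and 153 CPM in lens cells. Col4a4 had 10.6 and 4.1 CPM in mural cells and 8.33 and 6.22 CPM in endothelial cells, against 339.9 and 328 CPM in lens cells. All 4 vascular pools lay far below both lens pools for these 2 genes. In log2 terms Col4a3 was lower in mural cells by edgeR (−5.58 ± 0.36, adjusted p = 5.74e-34) and in endothelial cells (−5.21 ± 0.27, adjusted p = 9.81e-45). Col4a4 was likewise lower in mural cells by edgeR (−5.58 ± 0.26, adjusted p = 2.43e-50) and in endothelial cells (−5.48 ± 0.21, adjusted p = 3.64e-62). In vascular cells the CPM of both genes was within 1.5 times the share set by the lens markers in at least 1 pool, with Col4a4 scaled to all UMIs at 3.75% and 1.45% of its lens level in mural cells and at 3.09% and 2.31% in endothelial cells, so these values cannot be told apart from free lens RNA. A Col4a4 UMI was seen in 3.68% and 1.41% of mural cells and 4.11% and 2.8% of endothelial cells, against 78.2% and 80.5% of the more deeply counted lens cells.

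The pair on the X chromosome was also highest in lens cells, with Col4a5 above the level of free lens RNA in mural cells. Col4a5 had 31.9 and 30.0 CPM in mural cells and 10.9 and 7.25 CPM in endothelial cells, against 199 and 224 CPM in lens cells. Col4a6 had 10.6 and 4.1 CPM in mural cells and 1.92 and 1.04 CPM in endothelial cells, against 86.3 and 84.2 CPM in lens cells. By edgeR, Col4a5 was lower in mural cells (−2.78 ± 0.20, adjusted p = 4.10e-29) and in endothelial cells (−4.46 ± 0.21, adjusted p = 1.52e-49) than in lens cells, and Col4a6 was too (mural −3.61 ± 0.33, adjusted p = 1.80e-20; endothelial −5.75 ± 0.36, adjusted p = 7.54e-36). In mural cells Col4a5 stood at 19.2% and 15.5% of its lens level when scaled to all UMIs, several times the share of the lens markers. It was also higher in mural than in endothelial cells by edgeR (1.68 ± 0.38, adjusted p = 8.91e-05). Col4a6 passed the same edgeR comparison (2.14 ± 0.85, adjusted p = 0.0363), but on 6 and 3 UMIs in mural cells against 3 and 1 in endothelial cells, and it did not pass with DESeq2 (adjusted p = 0.0646) or without the upper limit on UMIs (edgeR, adjusted p = 0.23).

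Taken as shares of the UMIs of all 6 collagen IV genes, Col4a1 held 64.2% and 65.6% in mural cells, 54% and 54.1% in endothelial cells, and 48.4% and 48.7% in lens cells. Col4a2 held 35.1% and 34% in mural cells, 45.2% and 45.4% in endothelial cells, and 35% and 35.1% in lens cells. Together these 2 genes left under 1% for the other 4 in vascular cells. In lens cells Col4a3 held 3.08% and 3.14%, Col4a4 held 7.37% and 6.74% (exact 95% intervals 7.27% to 7.47% and 6.64% to 6.83%), Col4a5 held 4.31% and 4.6%, and Col4a6 held 1.87% and 1.73%. Intervals of shares cover counting error only. These are shares of transcripts, and protein was not measured.

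Col15a1 and Col18a1 encode collagens XV and XVIII, which are bound to basement membranes and carry heparan sulfate or chondroitin sulfate chains, and Col18a1 also gives rise to endostatin. Col18a1 had 23 and 39.6 CPM in mural cells, 1616 and 1518 CPM in endothelial cells, and 4.3 and 4.07 CPM in lens cells. Col15a1 was at 0 in both mural pools and had 397 and 427 CPM in endothelial cells and 0.327 and 0.221 CPM in lens cells. Both genes were highest in endothelial cells without overlap. Col18a1 served the study as a marker of endothelial cells, but it was not used to sort cells here. By edgeR Col18a1 was higher in endothelial than in lens cells by 8.55 ± 0.13 on the log2 scale (adjusted p = 3.03e-124), lower in mural than in endothelial cells (−5.60 ± 0.17, adjusted p = 3.24e-77), and higher in mural than in lens cells (2.95 ± 0.30, adjusted p = 1.35e-17). Col15a1 was higher in endothelial than in lens cells by 10.49 ± 0.19 (edgeR, adjusted p = 5.96e-114), and against mural cells it was at least 176-fold higher in endothelial cells, taking a floor of 3 UMIs over both mural pools. Only endothelial cells carried Col15a1 past the filter on low counts, so its call as higher there adds no support beyond the levels. No fold is given for Col15a1 between mural and lens cells, since mural cells were at 0 and the lens level lay under the CPM of that mural floor. A Col18a1 UMI was found in 96.2% and 96.3% of endothelial cells, against 6.75% and 10.8% of mural cells at like depth. Endothelial markers left out of the sorting also summed to 216 and 208 CPM in mural cells. Whether endothelial RNA added to the mural level of Col18a1 was not tested.

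Collagen VI is a filament-forming collagen next to basement membranes, and its chain genes were not expressed together. Col6a3 had 0 and 1.37 CPM in mural cells and 2.56 and 0 CPM in endothelial cells, against 122 and 114 CPM in lens cells. By edgeR it was lower in endothelial than in lens cells (−6.23 ± 0.34, adjusted p = 2.02e-42). The 1 UMI of all mural cells put the level in mural cells below that in lens cells by a ratio of 154-fold (exact 95% counting interval 27.6 to 6073). Col6a1 and Col6a2, the other classical chains, did not reach 20 CPM anywhere and were not tested, with Col6a1 between 0 and 1.77 CPM and Col6a2 between 0 and 15.9 CPM, the highest value of Col6a2 being in mural cells.

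Of the 11 collagens, 9 were tested. Between mural and lens cells 3 were higher and 5 lower, with a median log2 difference of −3.61. Col15a1, at 0 in mural cells, entered this median through its fitted value. Between endothelial and lens cells 2 were higher and 6 lower (median −4.46), and between mural and endothelial cells 4 were higher and 2 lower (median −0.097). The medians over all genes tested were −0.079, −0.12, and −0.018 in the same 3 comparisons.

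**Figure D2:**
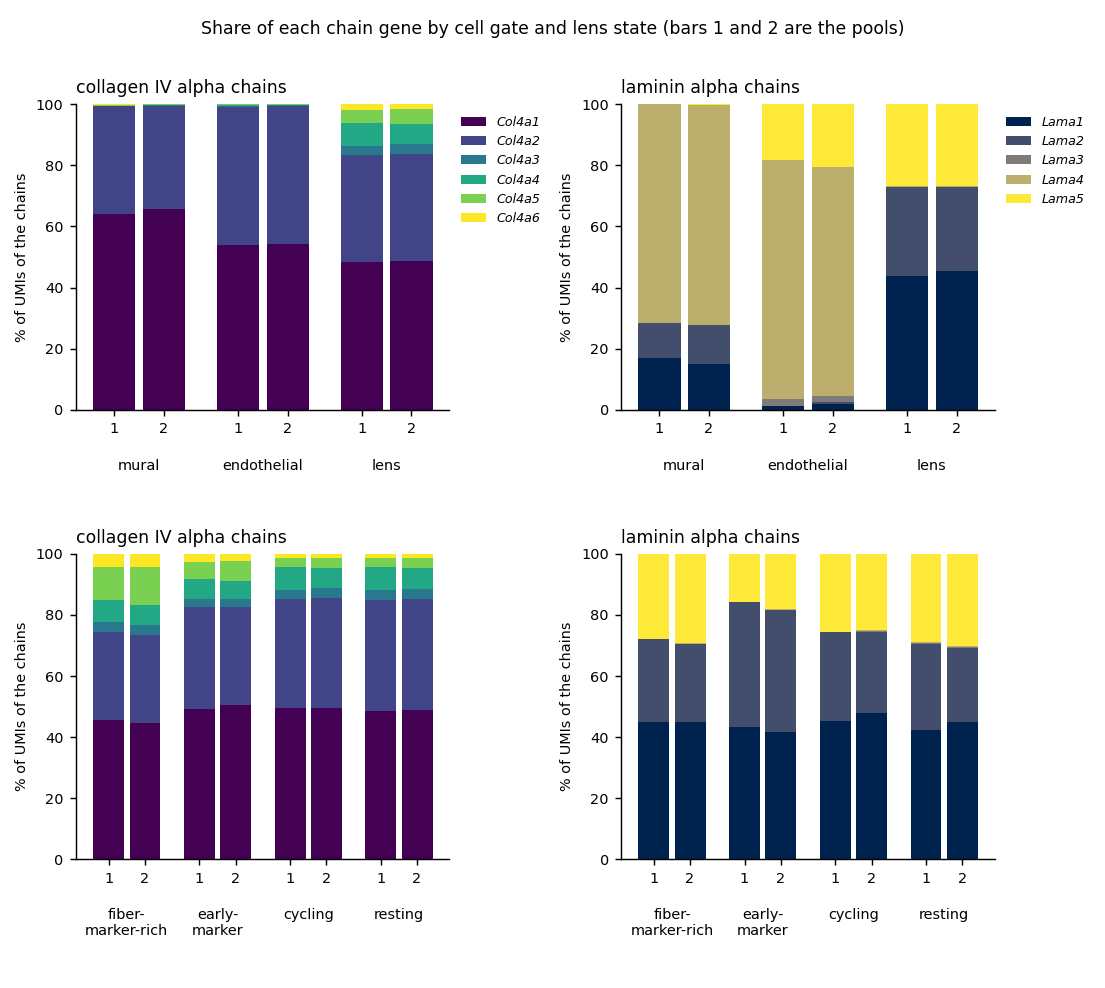
Shares of collagen IV UMIs by chain gene (left) and of laminin alpha UMIs by chain gene (right) as stacked bars, in percent, with 1 bar per pool. The upper row shows mural, endothelial, and lens cells and the lower row the fiber-marker-rich, early-marker, cycling, and resting lens cells. Col4a3 to Col4a6 take visible parts of the lens bars and under 1% together of each vascular bar, and Lama4 fills most of the vascular bars and almost none of the lens bars.

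The laminin alpha chains differed by cell type, each of the main chains being shared by a pair of cell types. Lama4 encodes alpha 4, a chain of vascular basement membranes, and it had 309.9 and 325 CPM in mural cells and 144 and 156 CPM in endothelial cells, against 0.245 and 0.276 CPM in lens cells. It was higher by edgeR in mural cells (10.21 ± 0.20, adjusted p = 5.85e-106) and in endothelial cells (9.13 ± 0.21, adjusted p = 9.45e-97) than in lens cells, and higher in mural than in endothelial cells (1.08 ± 0.15, adjusted p = 6.63e-11). A Lama4 UMI was seen in 62.6% and 60.6% of mural cells and 43% and 44.9% of endothelial cells, against 0.15% and 0.205% of lens cells, although lens cells were counted more deeply.

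Lama1 encodes alpha 1, the chain of early embryonic basement membranes and of the lens capsule, and Lama2 encodes alpha 2, best known from muscle and nerve. Lama1 had 72.6 and 68.3 CPM in mural cells, 2.56 and 4.14 CPM in endothelial cells, and 62.1 and 66.6 CPM in lens cells. Lama2 had 49.6 and 57.3 CPM in mural cells, 0 and 1.04 CPM in endothelial cells, and 41.5 and 40.6 CPM in lens cells. For both genes mural and lens cells lay close together, and endothelial cells lay below either without overlap. Neither passed the edgeR test between mural and lens cells (Lama1 0.12 ± 0.19, adjusted p = 0.61; Lama2 0.39 ± 0.22, adjusted p = 0.12). Lama1 was lower in endothelial than in lens cells by edgeR (−4.33 ± 0.32, adjusted p = 6.47e-28) and higher in mural than in endothelial cells (4.45 ± 0.40, adjusted p = 5.69e-21). For Lama2, on 1 UMI over both endothelial pools, the ratio of mural to endothelial cells was 136-fold (exact 95% counting interval 23.7 to 5460.5), and that of lens to endothelial cells was 104-fold (exact 95% counting interval 18.6 to 4095).

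Lama5 encodes alpha 5, which is widespread in mature basement membranes of epithelia and vessels. It had 0 and 1.37 CPM in mural cells, 34 and 42.5 CPM in endothelial cells, and 38.2 and 39.4 CPM in lens cells. Endothelial and lens cells overlapped and did not pass the edgeR test (−0.044 ± 0.19, adjusted p = 0.86), and the sign turned to 0.27 with total UMIs. On 1 UMI over both mural pools, Lama5 was lower in mural cells than in lens cells by a ratio of 50.2-fold (exact 95% counting interval 9.01 to 1984) and than in endothelial cells by 48.3-fold (exact 95% counting interval 8.45 to 1926). Among laminin alpha UMIs, Lama4 held 71.7% and 71.9% in mural cells and 78.1% and 75.1% in endothelial cells. The rest in mural cells was Lama1 (16.8% and 15.1%) and Lama2 (11.5% and 12.7%), while in endothelial cells Lama5 was next (18.4% and 20.4%). In lens cells Lama1 held 43.7% and 45.3%, Lama2 held 29.2% and 27.6%, and Lama5 held 26.8% and 26.8%.

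Among the beta chains, Lamb1, the usual beta chain, had 340.0 and 367 CPM in mural cells, 115 and 153 CPM in endothelial cells, and 162 and 171 CPM in lens cells. It was higher in mural cells than in lens cells by edgeR (1.08 ± 0.12, adjusted p = 1.27e-15) and than in endothelial cells (1.42 ± 0.14, adjusted p = 6.32e-18). It was lower in endothelial than in lens cells (−0.34 ± 0.12, edgeR adjusted p = 0.012), a call that was lost with DESeq2 (adjusted p = 0.37), without the pool as a block (edgeR, adjusted p = 0.055), and with total UMIs (adjusted p = 0.86). Lamb2, the beta chain of synapses, kidney, and vessels, had 85 and 69.6 CPM in mural cells and 66 and 62.2 CPM in endothelial cells, against 7.53 and 7.22 CPM in lens cells. Both vascular cell types were higher than lens cells (edgeR, mural 3.38 ± 0.24, adjusted p = 8.40e-30, endothelial 3.12 ± 0.20, adjusted p = 3.99e-35) and did not differ from each other past the threshold (0.26 ± 0.23, adjusted p = 0.41). Of laminin beta UMIs, Lamb2 held 20.0% and 15.9% in mural cells, 36.5% and 28.8% in endothelial cells, and 4.42% and 4.04% in lens cells.

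Lamc1, the gamma chain of most laminins, had 159 and 232 CPM in mural cells, 85.2 and 114 CPM in endothelial cells, and 79.9 and 86.3 CPM in lens cells. It was higher in mural than in lens cells (1.24 ± 0.14, edgeR adjusted p = 9.04e-15) and than in endothelial cells (0.996 ± 0.17, adjusted p = 7.52e-08). Endothelial and lens cells did not differ past the threshold (0.24 ± 0.14, edgeR adjusted p = 0.12). Lamc3 stayed under 20 CPM on average, with 8.85 and 24.6 CPM in mural cells and 7.05 and 14.5 CPM in endothelial cells, against 2 UMIs over both lens pools. Its ratio to lens cells was 1024-fold (exact 95% counting interval 253 to 8964) for mural cells and 572-fold (exact 95% counting interval 143 to 4981) for endothelial cells. Lama3 and Lamb3 encode chains of the laminin that anchors the epidermis and were not tested. Lama3 had 3.84 and 4.14 CPM in endothelial cells, Lamb3 had no UMI there, and neither had a UMI in mural cells or reached 1 CPM in lens cells. Of the 8 laminins tested, 5 were higher and 1 was lower between mural and lens cells (median log2 difference 1.16), 3 were higher and 3 lower between endothelial and lens cells (0.098), and 5 were higher and 1 was lower between mural and endothelial cells (1.04).

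The linkers split between the vascular cell types. Nidogens bridge the laminin and collagen IV networks. Nid1 had 917 and 1118 CPM in mural cells, 384 and 454 CPM in endothelial cells, and 809 and 868 CPM in lens cells. Nid2 had 49.6 and 50.5 CPM in mural cells and 142 and 166 CPM in endothelial cells, against 2.12 and 2.12 CPM in lens cells. Nid1 was lower in endothelial than in lens cells (−1.01 ± 0.097, edgeR adjusted p = 3.02e-19), while Nid2 was higher in mural cells (4.55 ± 0.31, adjusted p = 3.78e-31) and in endothelial cells (6.17 ± 0.18, adjusted p = 2.86e-81) than in lens cells. Between mural and endothelial cells the 2 nidogens went in opposite directions, with Nid1 higher (1.28 ± 0.10, edgeR adjusted p = 3.85e-24) and Nid2 lower (−1.62 ± 0.22, adjusted p = 1.08e-10). Nid1 was also higher in mural than in lens cells (0.28 ± 0.095, edgeR adjusted p = 0.00904), but not with DESeq2 (adjusted p = 0.17), with no filter on low counts (edgeR, adjusted p = 0.14), or without the block (edgeR, adjusted p = 0.0874).

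The proteoglycans also differed by cell type. Hspg2, which encodes perlecan, had 90.3 and 84.7 CPM in mural cells, 552 and 612 CPM in endothelial cells, and 389.8 and 434 CPM in lens cells. Agrn, which encodes agrin, had 406 and 430.1 CPM in mural cells, 124 and 148 CPM in endothelial cells, and 16.4 and 17.3 CPM in lens cells. Perlecan transcripts were fewest in mural cells and agrin transcripts most abundant there. Hspg2 was lower in mural than in lens cells (−2.25 ± 0.15, edgeR adjusted p = 3.71e-33) and than in endothelial cells (−2.74 ± 0.15, adjusted p = 5.01e-41), and it was higher in endothelial than in lens cells (0.50 ± 0.10, adjusted p = 4.05e-06). Agrn was higher in mural than in lens cells (4.63 ± 0.13, edgeR adjusted p = 3.57e-80), in endothelial than in lens cells (3.001 ± 0.14, adjusted p = 6.12e-50), and in mural than in endothelial cells (1.63 ± 0.14, adjusted p = 6.40e-22).

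Sparc, a collagen-binding glycoprotein whose loss causes cataract in mice, had among the highest UMI counts of the 39 genes in all 3 cell types. It had 2502 and 2377 CPM in mural cells, 4424 and 4518 CPM in endothelial cells, and 2727 and 2411 CPM in lens cells. It was highest in endothelial cells by edgeR, against lens cells (0.80 ± 0.12, adjusted p = 1.28e-05) and with mural cells below them (−0.87 ± 0.12, adjusted p = 1.56e-05). Neither call held with DESeq2 (adjusted p = 0.0699 and 0.12), and after free lens RNA was subtracted both came close to the limit of 0.05 (edgeR, adjusted p = 0.0342 and 0.0444). Mural and lens cells overlapped and did not pass (−0.074 ± 0.12, edgeR adjusted p = 0.63), and with total UMIs the sign turned to 0.16. Fn1, fibronectin, had 274 and 239 CPM in mural cells and 47.4 and 59 CPM in endothelial cells, against 11.7 and 12.3 CPM in lens cells. It was higher in mural cells than in lens cells (4.41 ± 0.16, edgeR adjusted p = 5.23e-67) and than in endothelial cells (2.29 ± 0.18, adjusted p = 8.57e-25), and higher in endothelial than in lens cells (2.12 ± 0.19, adjusted p = 2.89e-21). Of the 6 linkers, 4 were higher and 1 was lower between mural and lens cells, 5 were higher and 1 was lower between endothelial and lens cells, and 3 were higher and 3 lower between mural and endothelial cells.

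Genes of collagen modification also differed by cell type. Collagen prolines are hydroxylated by enzymes of alpha subunits, P4ha1 and P4ha2, with the shared beta subunit P4hb, which is also the protein disulfide isomerase of the endoplasmic reticulum. P4ha1 had 65.5 and 45.1 CPM in mural cells and 17.3 and 20.7 CPM in endothelial cells, against 149 and 129 CPM in lens cells. P4ha2 had 3.54 and 9.56 CPM in mural cells and 1.92 and 4.14 CPM in endothelial cells, against 122 and 111 CPM in lens cells. P4hb had 228 and 198 CPM in mural cells, 191 and 198 CPM in endothelial cells, and 162 and 169 CPM in lens cells. The alpha subunits were highest in lens cells and the beta subunit was nearly level. By edgeR, P4ha1 was lower in mural cells (−1.35 ± 0.19, adjusted p = 5.31e-11) and in endothelial cells (−2.92 ± 0.19, adjusted p = 9.66e-33) than in lens cells, as was P4ha2 (mural −4.06 ± 0.32, adjusted p = 4.07e-26, endothelial −5.40 ± 0.30, adjusted p = 1.39e-40). Between mural and endothelial cells P4ha1 was higher (1.57 ± 0.29, edgeR adjusted p = 1.58e-06) and P4ha2 did not pass (1.33 ± 0.75, adjusted p = 0.17). P4hb passed only between mural and lens cells (0.35 ± 0.13, edgeR adjusted p = 0.0141, or 0.11 with no filter on low counts), with 0.23 ± 0.12 between endothelial and lens cells (adjusted p = 0.0759) and 0.13 ± 0.14 between mural and endothelial cells (adjusted p = 0.55).

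Collagen lysines are hydroxylated by the products of Plod1, Plod2, and Plod3. Plod1 had 51.4 and 64.2 CPM in mural cells, 122 and 118 CPM in endothelial cells, and 19.7 and 19.8 CPM in lens cells. Plod2 had 88.5 and 77.8 CPM in mural cells, 9.61 and 12.4 CPM in endothelial cells, and 49.6 and 45.1 CPM in lens cells. Plod3, which also adds glucose to collagen, had 44.3 and 30.0 CPM in mural cells, 48.1 and 60.1 CPM in endothelial cells, and 32.3 and 27.7 CPM in lens cells. Plod1 was highest in endothelial cells and Plod2 lowest there. By edgeR, Plod1 was higher in mural than in lens cells (1.56 ± 0.23, adjusted p = 4.20e-10), higher in endothelial than in lens cells (2.61 ± 0.15, adjusted p = 1.49e-39), and lower in mural than in endothelial cells (−1.04 ± 0.21, adjusted p = 1.33e-05). Plod2 was higher in mural than in lens cells (0.81 ± 0.19, edgeR adjusted p = 6.95e-05), lower in endothelial than in lens cells (−2.16 ± 0.25, adjusted p = 3.38e-14), and higher in mural than in endothelial cells (2.97 ± 0.30, adjusted p = 2.63e-17). Plod3 was higher in endothelial than in lens cells (0.81 ± 0.18, edgeR adjusted p = 3.06e-05) and passed neither of the comparisons with mural cells (0.29 ± 0.25 against lens, adjusted p = 0.35, and −0.53 ± 0.28 against endothelial cells, adjusted p = 0.13).

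Serpinh1 encodes HSP47, the chaperone that holds procollagen triple helices, and Pcolce encodes an enhancer of the protease that trims fibrillar procollagens. Serpinh1 had 1057 and 995 CPM in mural cells, 668 and 571 CPM in endothelial cells, and 319 and 274 CPM in lens cells. It was higher in mural cells (1.80 ± 0.099, edgeR adjusted p = 2.40e-41) and in endothelial cells (1.06 ± 0.097, adjusted p = 5.27e-21) than in lens cells, and higher in mural than in endothelial cells (0.73 ± 0.10, adjusted p = 2.96e-10). Pcolce had 159 and 165 CPM in mural cells, 17.3 and 10.4 CPM in endothelial cells, and 86.6 and 77.3 CPM in lens cells. It was higher in mural than in lens cells (0.997 ± 0.15, edgeR adjusted p = 1.14e-09) and than in endothelial cells (3.502 ± 0.24, adjusted p = 1.56e-30), and lower in endothelial than in lens cells (−2.51 ± 0.22, adjusted p = 1.31e-22). Pcolce overlaps Fbxo24 on the same strand, so its counts are uncertain to that extent.

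Enzymes that cross-link the finished matrix also differed by cell type. Pxdn encodes peroxidasin, which forms the sulfilimine bonds between collagen IV trimers, and the lysyl oxidases cross-link collagens and elastin. Pxdn had 86.8 and 95.6 CPM in mural cells and 53.8 and 59 CPM in endothelial cells, against 190.0 and 193 CPM in lens cells. Loxl1, whose product is needed for elastic fibers, had 8.85 and 9.56 CPM in mural cells and 5.13 and 9.32 CPM in endothelial cells, against 231 and 228 CPM in lens cells. Loxl2, whose product acts on collagen IV, had 197 and 186 CPM in mural cells and 1.92 and 3.11 CPM in endothelial cells, against 21.8 and 23 CPM in lens cells. Pxdn and Loxl1 were highest in lens cells and Loxl2 in mural cells, without overlap. By edgeR, Pxdn was lower in mural cells (−1.06 ± 0.16, adjusted p = 6.74e-10) and in endothelial cells (−1.77 ± 0.15, adjusted p = 2.56e-24) than in lens cells, and higher in mural than in endothelial cells (0.70 ± 0.21, adjusted p = 0.00311). Loxl1 was lower in mural cells (−4.63 ± 0.26, edgeR adjusted p = 1.93e-40) and in endothelial cells (−5.08 ± 0.22, adjusted p = 1.26e-53) than in lens cells, where its vascular levels were close to what free lens RNA gives, and mural and endothelial cells did not differ past the threshold (0.45 ± 0.56, adjusted p = 0.58). Loxl2 was higher in mural than in lens cells (3.09 ± 0.16, edgeR adjusted p = 1.89e-43) and than in endothelial cells (6.32 ± 0.35, adjusted p = 3.55e-41), and lower in endothelial than in lens cells (−3.23 ± 0.43, adjusted p = 1.28e-11). Lox itself had 5.31 and 4.1 CPM in mural cells, 0 and 1.04 CPM in endothelial cells, and 2.69 and 2.5 CPM in lens cells and was not tested between them. Of the 11 processing genes tested, 6 were higher and 4 lower between mural and lens cells, 3 were higher and 7 lower between endothelial and lens cells, and 6 were higher and 1 was lower between mural and endothelial cells.

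For 22 of 155 calls over the 6 comparisons, the fold changes of the pools differed by over 1.5 times, and 21 of these were comparisons between cell types. Among them, the mural minus lens log2 differences of replicates 1 and 2 were −4.98 and −6.28 for Col4a4, −3.01 and −4.32 for Col4a6, −5.06 and −3.51 for P4ha2, and 2.39 and 3.24 for Col18a1. The endothelial minus lens differences were −5.89 and −4.69 for P4ha2 and −4.17 and −4.92 for Col4a5. Their direction was the same in both pools.

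**Figure D3:**
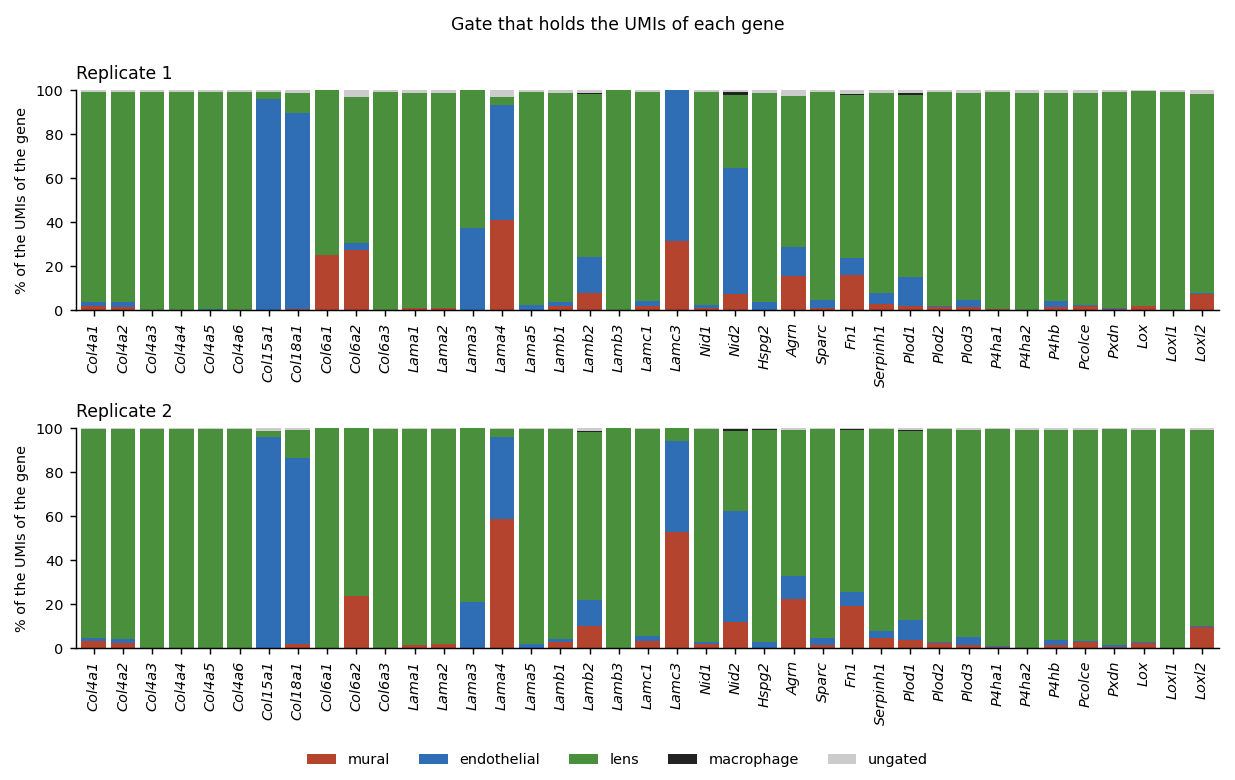
Percent of each gene's UMIs, over all kept cells of a pool, that lay in mural, endothelial, lens, and other cells, with 1 bar per pool. Vascular cells held most UMIs of Col15a1, Col18a1, Lama4, and Nid2, while lens cells held over 90% of those of Col4a1 and Col4a2.

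Because lens cells made up most of each pool, a tissue-level count is a different quantity from a level per cell type. Vascular cells were few, and yet endothelial cells held 96.1% and 95.8% of all Col15a1 UMIs and 89.1% and 84.8% of all Col18a1 UMIs. Mural cells held 40.9% and 58.6% and endothelial cells 52.6% and 37.2% of those of Lama4, and endothelial cells held 57.2% and 50.6% of those of Nid2. Lens cells held 95.1% and 94.7% of the UMIs of Col4a1, although its CPM was higher in mural cells. These shares scale with the number of vascular cells kept in each pool. Without the upper limit on genes and UMIs, endothelial cells numbered 400 and 276 instead of 316 and 214. They then held 3211707 and 2523943 UMIs instead of 1435258 and 927081. Mural cells stayed at 163 and 213, so the split between the vascular cell types depends on that limit.

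Within the lens cells, capsule genes were set against the stage of differentiation. Fiber-marker-rich cells (1992 and 1453) came from the 20% of each pool's lens cells highest in the UMI share of Crybb1, Cryba2, Mip, Lim2, Bfsp1, and Bfsp2. Early-marker cells (647 and 484) lay outside that 20%, with at least 3 UMIs from 2 or more of Ccdc80, Adamtsl4, Basp1, and Nnat. Both groups had division genes such as Mki67 and Top2a under 0.1% of their UMIs. Cycling cells (2071 and 1968) met neither the fiber nor the early limits and had division genes at 0.1% or more. Resting cells (2285 and 1256) were low in all of these. The early markers do not set the second group apart from the first, since Ccdc80 had 393 and 362 CPM in fiber-marker-rich cells and 333 and 315 CPM in early-marker cells, and Nnat had 587 and 553 CPM in fiber-marker-rich cells and 114 and 112 CPM in early-marker cells. Basp1 was also higher in fiber-marker-rich cells in both pools, whereas Adamtsl4 had 71.1 and 79.4 CPM in fiber-marker-rich cells and 224 and 206 CPM in early-marker cells. Fiber-marker-rich and early-marker cells are ranges of marker content and not distinct types, and 286 and 146 lens cells lay within 10% of that 20% limit. Resting cells had at most 1 UMI of the early markers and at most 1 of the division genes. Cycling cells had at least 5 UMIs of the latter. Such limits in UMIs also depend on depth. Median UMIs per cell were 9846.5 and 11676 in fiber-marker-rich cells and 6744 and 8940 in early-marker cells. They were 7898 and 9489 in cycling cells and 5437 and 6928.5 in resting cells. With gates set on cells thinned to 2000 UMIs, early-marker cells numbered 135 and 88. The 39 genes held 0.51% and 0.491% of all UMIs in fiber-marker-rich cells, 0.849% and 0.833% in early-marker cells, 0.951% and 0.947% in cycling cells, and 1.19% and 1.21% in resting cells. Of 32 genes tested (13269 genes in all), 4 were higher (12.5%) and 21 lower (65.6%) in fiber-marker-rich than in resting cells, beside 30.0% and 29.7% of all genes, or 59.7% in either direction. In early-marker cells 9 were higher (28.1%) and 15 lower (46.9%), beside 13.1% and 14.5% (27.6% in either direction), and in cycling cells 1 was higher (3.13%) and 21 were lower (65.6%), beside 22.6% and 25.1% (47.7% in either direction). These 3 comparisons share the resting cells. Their shares of all genes also stand beside the counts by role that follow.

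Fiber-marker-rich cells are full of crystallin transcripts, and the scale matters here most. Cryaa, the alpha A crystallin gene, alone had 120239 and 108037 CPM in fiber-marker-rich cells, against 12034 and 10314 CPM in resting cells. With total UMIs in place of TMM factors the median log2 difference over all genes was −0.45 instead of −0.02, and 1516 genes were higher and 8101 lower, instead of 3983 and 3943. The 4 genes called higher were then 2, while the early-marker and cycling comparisons stayed within 1.5 times of their counts.

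**Figure D4:**
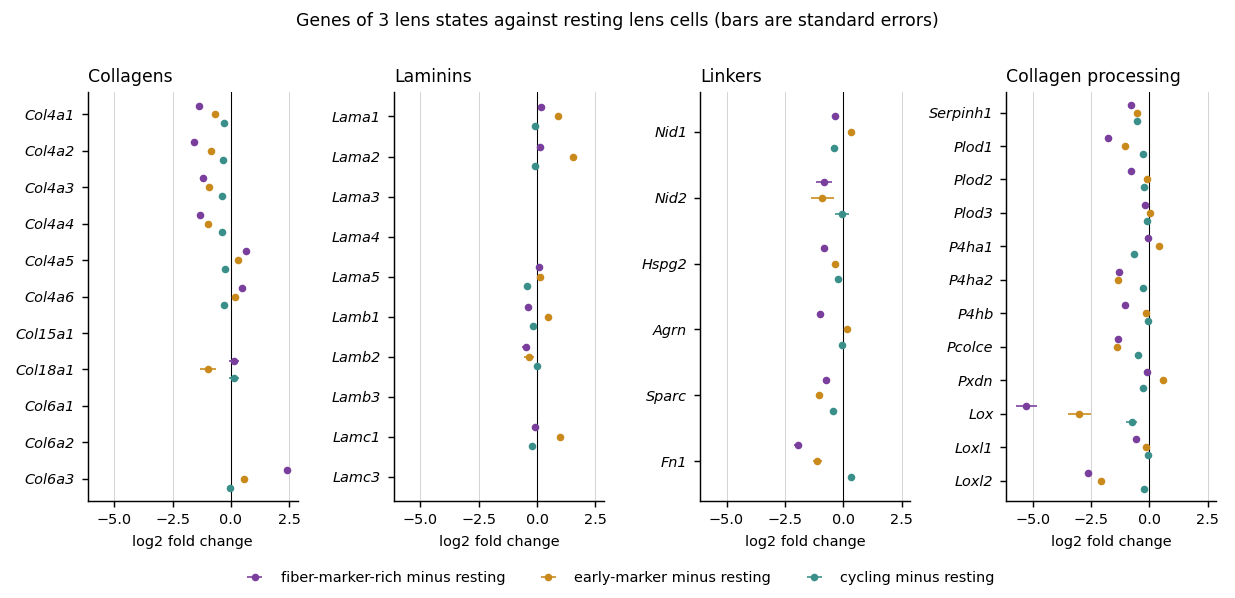
Log2 fold change of each tested gene in fiber-marker-rich, early-marker, and cycling lens cells against resting lens cells, from edgeR with the pool as a block, in 4 panels by role, with bars of 1 standard error. Col4a1 to Col4a4 lay below 0 in all 3 groups, while Col4a5, Col4a6, and Col6a3 lay above 0 in fiber-marker-rich cells, and Lama1, Lama2, and Lamc1 lay well above 0 in early-marker cells.

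In fiber-marker-rich cells the first and second collagen IV pairs were lower than in resting cells and the pair on the X chromosome was higher. Col4a1 had 1029.7 and 1002 CPM in fiber-marker-rich cells, 1546 and 1702 CPM in early-marker cells, 2052 and 2209 CPM in cycling cells, and 2446 and 2748 CPM in resting cells. Col4a4 had 162 and 144 CPM in fiber-marker-rich cells, 198 and 195 CPM in early-marker cells, 303 and 297 CPM in cycling cells, and 379 and 397 CPM in resting cells. Both genes were lowest in fiber-marker-rich cells and highest in resting cells, without overlap. By edgeR the log2 difference of fiber-marker-rich cells from resting cells was −1.35 ± 0.039 for Col4a1 (adjusted p = 8.16e-14), −1.58 ± 0.032 for Col4a2 (adjusted p = 7.42e-34), −1.20 ± 0.050 for Col4a3 (adjusted p = 6.80e-25), and −1.34 ± 0.045 for Col4a4 (adjusted p = 9.11e-28). In early-marker cells the same 4 genes were lower with log2 differences of −0.68, −0.86, −0.95, and −0.98, and in cycling cells with −0.28, −0.34, −0.40, and −0.37, each of them called by edgeR. Within the second pair the ratio moved little, with 2.24 and 1.9 Col4a4 UMIs per Col4a3 UMI in fiber-marker-rich cells, 2.4 and 2.08 in early-marker cells, 2.48 and 2.18 in cycling cells, and 2.35 and 2.2 in resting cells.

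Col4a5 went the other way. It had 243 and 279 CPM in fiber-marker-rich cells, 184 and 223 CPM in early-marker cells, 128 and 149 CPM in cycling cells, and 152 and 182 CPM in resting cells. Col4a6 had 98.5 and 99.7 CPM in fiber-marker-rich cells, 80.1 and 80.3 CPM in early-marker cells, 55.6 and 58.9 CPM in cycling cells, and 71 and 71.9 CPM in resting cells. In fiber-marker-rich cells Col4a5 was higher than in resting cells (0.65 ± 0.043, edgeR adjusted p = 2.12e-17) and so was Col4a6 (0.47 ± 0.055, adjusted p = 4.25e-10), though with total UMIs Col4a6 did not pass (0.039, adjusted p = 0.56). Col4a5 was also higher in early-marker cells (0.28 ± 0.050, edgeR adjusted p = 1.16e-05, or 0.14 without the block), while Col4a6 there did not pass (0.17 ± 0.069, adjusted p = 0.0655). Both were lower in cycling cells (−0.27 ± 0.044, edgeR adjusted p = 2.38e-06, and −0.32 ± 0.057, adjusted p = 8.50e-06), where Col4a5 did not pass without the block (adjusted p = 0.11). Among collagen IV UMIs, a ratio within each cell group that the scaling does not touch, Col4a5 held 10.8% and 12.4% in fiber-marker-rich cells, 5.85% and 6.58% in early-marker cells, 3.1% and 3.34% in cycling cells, and 3.01% and 3.23% in resting cells. That share also rises because Col4a1 to Col4a4 fall. Of all UMIs, Col4a5 had 3966 of 20506949 and 3797 of 16999287 in fiber-marker-rich cells, and 2080 of 12520023 and 1663 of 8622740 in resting cells. On this scale its rise was smaller than with TMM factors.

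Of all 32 genes tested, Col6a3 rose the most in fiber-marker-rich cells. It had 258 and 268 CPM in fiber-marker-rich cells, 77.9 and 68.4 CPM in early-marker cells, 51.2 and 46.9 CPM in cycling cells, and 55.4 and 44.2 CPM in resting cells. By edgeR it was higher in fiber-marker-rich cells (2.39 ± 0.061, adjusted p = 2.70e-25) and in early-marker cells (0.54 ± 0.085, adjusted p = 6.49e-06), and it did not pass in cycling cells (−0.036 ± 0.071, adjusted p = 0.71). With total UMIs its difference in fiber-marker-rich cells was 1.95. The chains that join it in collagen VI stayed under 1 CPM in every group of lens cells.

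Of the 6 laminins tested, 4 were higher in early-marker than in resting cells. Lama2 had 33.7 and 34.1 CPM in fiber-marker-rich cells, 91.3 and 90.8 CPM in early-marker cells, 29.5 and 28.7 CPM in cycling cells, and 33.1 and 28.7 CPM in resting cells. Lama1 had 56.2 and 60.0 CPM in fiber-marker-rich cells, 96.3 and 94 CPM in early-marker cells, 46 and 51.1 CPM in cycling cells, and 49.8 and 53.8 CPM in resting cells. Lamc1 had 60.2 and 72.6 CPM in fiber-marker-rich cells, 134 and 145 CPM in early-marker cells, 59.3 and 63.2 CPM in cycling cells, and 70.7 and 71.4 CPM in resting cells. For all 3 genes the early-marker pools lay above the pools of every other group. Against resting cells Lama2 was higher by 1.55 ± 0.081 on the log2 scale (edgeR, adjusted p = 2.38e-20), Lamc1 by 0.97 ± 0.065 (adjusted p = 1.11e-16), Lama1 by 0.88 ± 0.073 (adjusted p = 9.34e-14), and Lamb1 by 0.48 ± 0.051 (adjusted p = 2.23e-10), an alpha, beta, and gamma set of chains. Lama5 (0.12 ± 0.097, edgeR adjusted p = 0.42) and Lamb2 (−0.36 ± 0.22, adjusted p = 0.26) did not pass. Among laminin alpha UMIs, Lama2 held 27% and 25.5% in fiber-marker-rich cells, 41% and 40.1% in early-marker cells, 29% and 26.8% in cycling cells, and 28.2% and 24% in resting cells.

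In fiber-marker-rich cells Lama2 did not pass (0.12 ± 0.079, edgeR adjusted p = 0.2), but its sign turned with total UMIs (−0.31), and with the highest 10% in place of 20% it was lower than in resting cells by edgeR (−1.19, adjusted p = 5.32e-13). Lama1 was called higher there (0.17 ± 0.065, edgeR adjusted p = 0.0242), but it turned to −0.27 with total UMIs and to −0.15 with the highest 10%. Lama5 (0.066 ± 0.076, edgeR adjusted p = 0.47) and Lamc1 (−0.11 ± 0.061, adjusted p = 0.12) did not pass, and Lama5 turned to −0.37 with total UMIs. Lamb1 was lower (−0.37 ± 0.048, edgeR adjusted p = 5.86e-09), as was Lamb2 (−0.46 ± 0.17, adjusted p = 0.0164), which did not pass with DESeq2 (adjusted p = 0.21). In cycling cells Lama5 (−0.42 ± 0.078, edgeR adjusted p = 1.62e-05), Lamc1 (−0.22), and Lamb1 (−0.17) were lower, of which Lamc1 and Lamb1 did not pass with DESeq2 (adjusted p = 0.0856 and 0.0703).

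All 6 linkers were lower in fiber-marker-rich than in resting cells. Sparc had 1842 and 1539 CPM in fiber-marker-rich cells, 1427 and 1268 CPM in early-marker cells, 2112 and 1991 CPM in cycling cells, and 2847 and 2729 CPM in resting cells. Hspg2 had 235 and 246 CPM in fiber-marker-rich cells, 317 and 346 CPM in early-marker cells, 342 and 382 CPM in cycling cells, and 392 and 464 CPM in resting cells. In fiber-marker-rich cells the log2 differences by edgeR were −1.93 ± 0.16 for Fn1 (adjusted p = 3.70e-14), −0.996 ± 0.13 for Agrn (adjusted p = 5.58e-09), −0.83 ± 0.041 for Hspg2 (adjusted p = 5.20e-22), −0.73 ± 0.038 for Sparc (adjusted p = 1.54e-10), and −0.35 ± 0.031 for Nid1 (adjusted p = 2.89e-13). Nid2, near 2 CPM in resting cells, was at the edge of the test (−0.82 ± 0.34, edgeR adjusted p = 0.032) and did not pass with DESeq2 (adjusted p = 0.26). Nid1 differed from the others in early-marker cells, where it was higher (0.32 ± 0.032, edgeR adjusted p = 3.91e-11), while Sparc (−1.05 ± 0.039, adjusted p = 8.51e-12), Fn1 (−1.11 ± 0.20, adjusted p = 1.64e-05), and Hspg2 (−0.36 ± 0.044, adjusted p = 3.83e-09) were lower. In cycling cells Nid1 (−0.40), Hspg2 (−0.24), and Sparc (−0.44) were lower, and Fn1 was the one gene of the 32 called higher (0.34 ± 0.11, edgeR adjusted p = 0.0124), a call lost with DESeq2 (adjusted p = 0.25) and without the block (edgeR, adjusted p = 0.0716).

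No gene of collagen processing was higher in fiber-marker-rich cells, and 9 of the 12 were lower. Loxl2 had 4.96 and 3.97 CPM in fiber-marker-rich cells, 5.19 and 8.47 CPM in early-marker cells, 22.7 and 25.1 CPM in cycling cells, and 25.9 and 30.7 CPM in resting cells. Lox was found at 3 UMIs in all fiber-marker-rich cells together, lower than in resting cells by a ratio of 42.4-fold (exact 95% counting interval 14.1 to 209). Plod1 had 6.67 and 6.83 CPM in fiber-marker-rich cells, 12 and 10.4 CPM in early-marker cells, 19.2 and 19.5 CPM in cycling cells, and 21.6 and 25.2 CPM in resting cells. Loxl2 was lower in fiber-marker-rich cells (−2.63 ± 0.13, edgeR adjusted p = 6.93e-22) and early-marker cells (−2.05 ± 0.17, adjusted p = 9.64e-14), as were Plod1 (−1.78 ± 0.12, adjusted p = 3.22e-17, and −1.05 ± 0.15, adjusted p = 1.74e-07) and Pcolce (−1.34 ± 0.070, adjusted p = 7.19e-19, and −1.41 ± 0.092, adjusted p = 2.64e-15). P4ha2 (−1.31), P4hb (−1.04), Plod2 (−0.81), Serpinh1 (−0.80), and Loxl1 (−0.56) were also lower in fiber-marker-rich cells, whereas P4ha1, Pxdn, and Plod3 did not pass there (adjusted p between 0.0675 and 0.26 by edgeR).

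The 2 prolyl hydroxylase alpha subunits separated in early-marker cells. P4ha1 had 134 and 121 CPM in fiber-marker-rich cells, 189 and 164 CPM in early-marker cells, 87.1 and 80.1 CPM in cycling cells, and 141 and 126 CPM in resting cells. P4ha2 had 58.1 and 46.7 CPM in fiber-marker-rich cells, 56.7 and 47.1 CPM in early-marker cells, 111 and 103 CPM in cycling cells, and 131 and 131 CPM in resting cells. In early-marker cells P4ha1 was higher (0.40 ± 0.053, edgeR adjusted p = 3.23e-08) and P4ha2 lower (−1.33 ± 0.076, adjusted p = 1.60e-18) than in resting cells. Pxdn had 245 and 265 CPM in early-marker cells and 169.8 and 171 CPM in resting cells and was higher too (0.58 ± 0.049, edgeR adjusted p = 3.0e-13). Lox (−2.999), Serpinh1 (−0.53), and Loxl1 (−0.14, lost with DESeq2 at an adjusted p of 0.24) were lower there. In cycling cells 9 of the 12 genes were lower, with P4ha1 (−0.67 ± 0.049, edgeR adjusted p = 4.75e-16) and Serpinh1 (−0.52 ± 0.043, adjusted p = 3.64e-14) called in that direction by DESeq2 as well. Without the block, 13 of the 32 genes were called in cycling cells, all lower, instead of 22.

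Other matrix genes, outside the 39, gave a background to these patterns. Their counts are to be read beside the shares of all genes in the same comparisons. The limit set by the filter on low counts, given above for the 39 genes, holds for them too. Of 6 fibrillar collagen genes 4 were tested, and all 4 were higher in mural cells than in lens cells and than in endothelial cells. Col3a1 and Col1a2, low in lens and endothelial cells, passed the filter through their mural level. Their calls and this count therefore add no support beyond the levels. Col3a1 averaged 294 ± 35.6 CPM in mural cells and 0.0592 ± 0.0317 CPM in lens cells (SD, n = 2 pools each; edgeR log2 difference 12.05, adjusted p = 1.95e-100), and Col1a2 averaged 312 ± 22.6 CPM in mural cells and 1.39 ± 0.0929 CPM in lens cells (7.80, edgeR adjusted p = 1.26e-93). Against endothelial cells, Col1a2 (7.28, edgeR adjusted p = 7.00e-51) was higher in mural cells, as were Col3a1 and Col5a1, which had at most 1 UMI in an endothelial pool. Col8a1, a short-chain collagen, averaged 35.3 ± 9.9 CPM in mural cells and was at 0 in both endothelial pools. In endothelial cells Col5a2 was higher than in lens cells (3.73, edgeR adjusted p = 6.15e-40), with 57.9 ± 4.22 CPM in endothelial cells and 4.35 ± 0.318 CPM in lens cells.

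Of 17 other basement membrane and adhesion genes 8 were tested between cell types, of which 4 were higher and 4 lower between mural and lens cells, 2 were higher and 4 lower between endothelial and lens cells, and 4 were higher and 2 lower between mural and endothelial cells. Among all genes, 27.2% were higher and 28.6% lower between mural and lens cells, and 29.2% and 34.5% between endothelial and lens cells. Between mural and endothelial cells the shares were 19.8% and 16.7%. Bgn, the small proteoglycan biglycan, averaged 954 ± 13 CPM in mural cells and 187 ± 28.9 CPM in endothelial cells, against 1.06 ± 0.327 CPM in lens cells (edgeR, mural minus lens 9.81, adjusted p = 1.92e-122, endothelial minus lens 7.45, adjusted p = 2.03e-99). Tinagl1, a laminin-binding matrix protein, averaged 12 ± 0.635 CPM in endothelial cells and 446 ± 2.84 CPM in lens cells (−5.23, edgeR adjusted p = 1.41e-65). Within the lens Tinagl1 was higher in early-marker cells, with 1051 ± 26.9 CPM in early-marker cells and 384 ± 4.72 CPM in resting cells (1.45, edgeR adjusted p = 3.19e-32). Npnt, the integrin ligand nephronectin, was lower in fiber-marker-rich cells (−1.83, edgeR adjusted p = 2.61e-32) and in early-marker cells (−1.09, adjusted p = 1.42e-21), as was Fbln1, fibulin 1 (−1.65, adjusted p = 3.20e-19, and −0.99, adjusted p = 5.79e-09). Of the 12 genes of this group tested in lens cells, 2 were higher and 7 lower in fiber-marker-rich cells, 4 were higher and 4 lower in early-marker cells, and 1 was higher and 6 were lower in cycling cells. Among all genes, 30.0% were higher and 29.7% lower in fiber-marker-rich cells, 13.1% and 14.5% in early-marker cells, and 22.6% and 25.1% in cycling cells.

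Of 18 other genes of collagen processing 14 were tested between cell types, with 4 higher and 4 lower between mural and lens cells, 3 higher and 6 lower between endothelial and lens cells, and 6 higher and 2 lower between mural and endothelial cells. The shares of all genes are those given for the group above, and the counts between mural and lens cells were near them. P3h2, which hydroxylates prolines of collagen IV at another carbon, averaged 6.71 ± 2.24 CPM in endothelial cells and 86 ± 5.69 CPM in lens cells (−3.77, edgeR adjusted p = 2.39e-30). In lens cells 15 were tested, and the direction was that of the 12 processing genes among the 39, with 0 higher and 11 lower in fiber-marker-rich cells, 2 higher and 8 lower in early-marker cells, and 0 higher and 8 lower in cycling cells. P4ha3, another prolyl hydroxylase alpha subunit, was lower in fiber-marker-rich cells (−1.91, edgeR adjusted p = 1.64e-19), as was the proline isomerase Fkbp14 (−0.96, adjusted p = 5.18e-11). P3h4 was lower in early-marker cells (−0.57, edgeR adjusted p = 3.62e-08). Fkbp14 (−1.05, edgeR adjusted p = 3.40e-12), P3h1 (−0.67, adjusted p = 1.24e-11), Fkbp10 (−0.55, adjusted p = 1.46e-08), and P3h2 (−0.49, adjusted p = 1.28e-08) were lower in cycling cells.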

How the data were processed

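The scRNA-seq libraries were made with the 10x Genomics 3′ kit v3.1 and sequenced by the study, 1 library per pool. The deposited matrices hold raw UMI counts per gene and barcode, which the authors made with Cell Ranger 6.1.1 against the mouse genome mm10, with no normalization. The 39 members and all gene lists were chosen with earlier results of these data known.

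From these counts, barcodes below the 2nd or above the 97th percentile of genes or UMIs over both pools (445.52 to 4261 genes and 949 to 20198 UMIs) or with more than 15% mitochondrial UMIs were removed. Then 8% of the remaining barcodes per pool were dropped by Scrublet score (scanpy 1.11.5), where the study used DoubletFinder. Mural, endothelial, and macrophage cells had at least 5 UMIs and 3 genes of a panel of 7 markers at 0.2% or more of their UMIs, with Cryaa plus Cryab under 2% and the other 2 panels under 0.2%. Lens cells had Cryaa plus Cryab at 2% or more and each panel under 0.05%. Hemoglobin genes were under 5% in all of them. Lens groups were set on the marker panels named in the report, with 145 and 61 cells in no cell type and 3016 and 2162 lens cells in no group.

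UMIs were summed per pool and cell type (8 sums) and per pool and lens group (8 sums). The sums were tested with edgeR 4.0.16 (R 4.3.3; TMM factors, default filter on low counts, robust quasi-likelihood fit, Benjamini-Hochberg adjustment at 0.05) with the pool as a block, since all sums of a pool come from the same library. Pool values and the test are given for each member with a mean of at least 20 CPM in mural, endothelial, or lens cells, and the other members by their range. Of other matrix genes, up to 4 per comparison are named, those called with the largest change and at least 20 CPM in 1 of the groups. Genes at 0 were set to a floor of 3 UMIs over both pools, and intervals are exact at 95%. Few-count ratios and their intervals, shares, and floors cover counting error only. Standard errors of log2 differences were computed back from the F statistic of the edgeR test.

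Tested on simulated counts with 200 changed genes per comparison, edgeR recovered 199 of them between mural and lens cells (7509 genes), 200 between endothelial and lens cells (7540 genes), 194 between mural and endothelial cells (8112 genes), 194 for fiber-marker-rich cells (12674 genes), 176 for early-marker cells (12685 genes), and 189 for cycling cells (12696 genes), with 5 to 10 false calls each. The changed genes were drawn from those with enough expected counts, with a common dispersion, no pool difference, and all other genes level. Such rates do not carry over to genes with few UMIs or to shifts across most genes. The alternatives were DESeq2 1.42.0, no filter on low counts, no block, keeping doublets, limits set by percentiles within each pool, dropping the upper limit on genes and UMIs, gates set on cells thinned to 2000 UMIs, stricter gates (panel at 0.4%, Cryaa plus Cryab under 1%), the highest 10% of the fiber panel, each pool left out, and, chosen after seeing the data, total UMIs in place of TMM factors and subtraction of free lens RNA scaled by Pax6 and Foxe3. The subtraction first listed also used a lens marker that is not reported here.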

Additional observations from a re-analysis of the deposited data

How the results depend on the processing

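Of 1820 log2 fold changes refitted under alternatives with a test, 1712 kept their direction and side of the threshold, 59 lost the call, 22 gained one, and 27 changed sign. With DESeq2 the sign changed for Lama5 between endothelial and lens cells (0.042) and for Col15a1 (0.15) and Sparc (0.011) between mural and lens cells. With total UMIs it changed for Lama5 (0.27) and Col4a2 (0.21) between endothelial and lens cells, for Sparc between mural and lens cells (0.16), and in fiber-marker-rich cells for Lama5 (−0.37), Lama2 (−0.31), Col18a1 (−0.30), and Lama1 (−0.27), where the members higher were 2 instead of 4. With the highest 10% of the fiber panel it changed for Lama5 (−0.14), Lama2 (−1.19), and Lama1 (−0.15). With no upper limit it changed for Lama5 between endothelial and lens cells (0.0069), P4hb between mural and endothelial cells (−0.014), Lama5 (−0.011) and Lama2 (−0.11) in fiber-marker-rich cells, and Nid2 in cycling cells (0.0011). With thinned cells it changed for Col4a4 between mural and endothelial cells (0.12), Lama2 in fiber-marker-rich cells (−0.14), and Agrn in cycling cells (0.033). With stricter gates it changed for Col4a4 (0.094) and Col4a3 (0.075), and with free RNA subtracted for Col4a4 (0.0082) and Col6a3 (0.017), all between mural and endothelial cells. With no doublet removal it changed for Nid2 (0.041) and with percentiles within each pool for Lamb2 (−0.0032), both in cycling cells. The cause was not tested for any of these.

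Without the pool as a replicate block, 13 members were called in cycling cells, 0 higher and 13 lower, against 22, 1, and 21, and with DESeq2 0 were higher; in the other 5 comparisons no block and DESeq2 kept the members called within 1.5 times. Over all genes, calls in early-marker cells were 2213 with DESeq2, 2262 without the block, and 1708 with thinned cells, against 3664, and in cycling cells 3596 with DESeq2 and 4070 without the block, against 6333. Leaving out a pool leaves no residual degrees of freedom, so no call was counted there. Of 396 single-pool log2 differences 40 moved by more than the spread and 0 changed sign. Chain shares moved by at most 3.84 percentage points under the alternatives in which they were compared. They were not compared with stricter gates or with the smaller top fraction of the fiber panel. Under that smaller fraction Lama2 changed sign in fiber-marker-rich cells, so the stability of laminin alpha shares there was not tested. Depth limits the vascular comparisons of genes with few UMIs, and free lens RNA those of genes high in the lens.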

Other observations

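Macrophages entered no comparison of the members, with 23 and 25 cells. P4hb had 232 and 261 CPM there, Plod1 had 121 and 55.9 CPM, and Sparc had 40.4 and 205 CPM, the higher Sparc value resting on 22 UMIs in 8% of the cells of replicate 2. Col4a1 had 40.4 and 55.9 CPM and Col4a2 had 50.5 and 37.3 CPM on 4 to 6 UMIs a pool, and Col15a1, Col18a1, and Lama4 had no UMI in macrophages of either pool.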
